A study of Mus musculus with 4 samples.

Results

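The genes of the spindle assembly checkpoint and of the Aurora and Polo kinases were examined in germinal vesicle (GV) stage mouse oocytes with and without γ-irradiation. The 10 genes, taken by symbol from a table of 17374 genes, were Mad1l1, Mad2l1, Bub1, Bub1b, Bub3, Ttk, Aurka, Aurkb, Aurkc and Plk1, and all of them were listed and passed the filter on low counts. They were represented by 32 of the 45505 RefSeq transcripts in the table. There were 4 libraries, n = 2 from control oocytes that received no irradiation and n = 2 from oocytes that were given 5 Gy of γ-rays from a cesium source in culture. All oocytes came from non-primed female mice of a C57BL/6 and DBA F1 hybrid background at postnatal day 16. They were freed of cumulus cells and of the zona pellucida, and were held at the GV stage with milrinone, which control oocytes received as well. Irradiated oocytes were collected 24 h after exposure. Each library is a pool of oocytes, and the study describes 2 independent replicates of the experiment, so values are averages over oocytes, and fewer oocytes with a transcript cannot be told apart from less transcript per oocyte. RNA was selected through its poly(A) tail, so that messages stored with a short tail may be captured less well.

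The spindle assembly checkpoint delays anaphase until kinetochores have attached to microtubules. Unattached kinetochores recruit a dimer of MAD1 and MAD2, which converts further MAD2 into the form that binds CDC20, and MAD2, BUBR1 (the product of Bub1b), BUB3 and CDC20 form the mitotic checkpoint complex that inhibits the anaphase-promoting complex. The kinase MPS1, encoded by Ttk, starts this signal. Aurora B and, in germ cells, its close relative Aurora C correct faulty attachments as the catalytic subunit of the chromosomal passenger complex, whereas Aurora A and Polo-like kinase 1 act at spindle poles and in entry into division. GV oocytes rest in prophase of the first meiotic division and store these messages for the divisions to come.

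The estimated counts summed to between 33349466 and 37232818 per library. The 12 oocyte markers were above 1 TPM (a level corrected for transcript length and for the size of the library) in every library. Their sums were 52310 to 52619 TPM in control and 47301 to 52041 TPM in irradiated libraries. Single markers moved in both directions in irradiated library 2. Zp2 was at 1937 TPM there against 4115 to 4452 TPM in the other libraries, and Nobox at 1215 TPM against 398 to 468 TPM. Of 11 granulosa and cumulus markers, 7 were listed, and they summed to 16.8 and 19.0 TPM in control and 16.7 and 22.3 TPM in irradiated libraries. Foxl2, Amh, Amhr2 and Fst were not among the listed genes. Irradiated library 2 stood apart from the rest. The standard deviation over genes of its log2 difference from the mean of the other 3 libraries was 0.483. For the others it was 0.296 to 0.330. The median difference of irradiated library 2 was 0.25 in the quintile of genes with the highest GC content and -0.10 in the quintile with the lowest. These medians were 0.047 and -0.047 in irradiated library 1. They were -0.16 and 0.076 in control library 1, and -0.13 and 0.097 in control library 2. The trend with GC content thus ran along the groups, and a correction for it may remove part of a group difference. This was not tested. The part of irradiated library 2 in each result was not tested beyond the values given without it.

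The 10 genes spanned a wide range of levels (plot of TPM by library). Mad2l1, which encodes the subunit that captures CDC20, was the highest at 576 and 595 TPM in control libraries and 537 and 648 TPM in irradiated libraries, and ranked 262 of all genes by mean TPM. Aurkc, the Aurora kinase of germ cells, followed at 375 and 347 TPM in the controls and 360 and 464 TPM after irradiation. The values below keep this order of libraries. Both genes thus sat among the top 1.51% and 2.18% of all listed genes. Aurka was measured at 132, 151, 159 and 206 TPM and Bub3, the WD40-repeat adaptor of the checkpoint kinases, at 138, 144, 145 and 212 TPM, and these neighbours could not be put in order because their ranges overlapped. Bub1b stood at 55.5, 58.0, 61.7 and 70.0 TPM, Plk1 at 30.7, 39.0, 41.1 and 88.3 TPM, and Ttk at 34.7, 40.1, 37.5 and 53.4 TPM. The range of Plk1 overlapped those of both its neighbours, Bub1b and Ttk. Bub1, the kinase that brings shugoshin to centromeres, was measured at 23.0, 25.6, 23.5 and 23.7 TPM. The lowest were Mad1l1, the kinetochore anchor of MAD2, at 9.35, 11.1, 13.4 and 16.4 TPM, and Aurkb at 4.93, 6.27, 6.76 and 10.8 TPM, and their ranges overlapped.

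**Figure D1:**
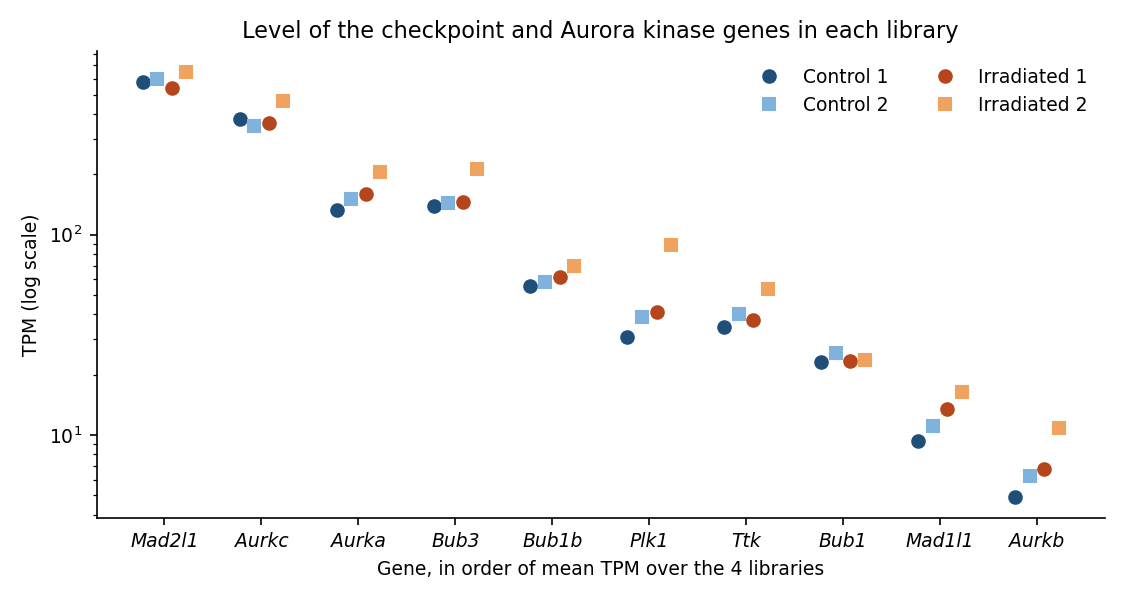
TPM (vertical axis, log scale) of the 10 genes in each of the 4 libraries, with genes in order of mean TPM, circles for replicate 1 and squares for replicate 2 of each group. Mad2l1 and Aurkc sit above the other genes in every library, Aurkb and Mad1l1 sit below them, and irradiated library 2 is highest for 9 of the 10 genes.

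Irradiated library 2 gave the highest TPM for 9 of the 10 genes, all but Bub1. The median log2 difference between groups over all genes tested was 0.18 with log2(TPM + 1) and 0.010 after TMM normalization. The TPM scale ran high in irradiated library 2 and not in both irradiated libraries. TMM normalization gave irradiated library 2 a factor of 1.19, against 0.937 for irradiated library 1 and 0.923 and 0.975 for the controls. After that normalization irradiated library 2 was still the highest for 4 genes, Bub3, Ttk, Aurkb and Plk1. Gene totals are therefore compared between groups by normalized counts, on which every fold change of a gene rests. These are estimated counts divided by library size and TMM factor and brought to the mean library.

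Among the pathway genes of the fixed list, Ccnb1 (cyclin B1) lay next above Mad2l1 in mean control level at 1893 TPM, and Ube2c, an E2 enzyme of the anaphase-promoting complex, lay next below it at 529 TPM. Aurkc fell between Ccnb2 at 361.4 TPM and Dsn1, a subunit of the MIS12 complex, at 283 TPM. Aurka and Bub3 both lay between the NDC80 complex genes Spc24 and Nuf2, at 151 and 140 TPM. Bub1b lay between Anapc10 at 65.8 TPM and Cdk1 at 51.9 TPM, Ttk between Anapc11 at 46.2 TPM and Mad2l1bp at 35.2 TPM, and Plk1 between Mad2l1bp and Anapc4 at 28.6 TPM. Bub1 had Cdc26 at 24.9 TPM above it and Plk4 at 21.6 TPM below it, and Mad1l1 had Mis12 at 10.4 TPM and Sgo2a at 8.83 TPM. Aurkb lay between Nsl1 at 5.81 TPM and Knl1, the kinetochore platform that BUB proteins bind, at 5.56 TPM. The checkpoint genes were thus not a block at 1 level but were spread among the genes of the kinetochore and of the anaphase-promoting complex.

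Whether irradiation changed any of the 10 gene totals was asked with the limits of the study's methods, which are a change of more than 2 log2 units in either direction and an adjusted p under 0.05. None of the 10 passed both limits in the edgeR quasi-likelihood test, with the adjustment over all 12569 genes tested, and the other tools run, DESeq2 and the exact test of edgeR, passed 0 as well. Over all genes 1 passed both limits (0.00796%). At an unadjusted p under 0.05, 1 of the 10 genes was higher in irradiated oocytes (Plk1) and 0 were lower, beside 4.63% and 1.29% of all genes tested. The fitted log2 fold change was above 0 for 6 genes and below 0 for 4, with a median of 0.066 beside 0.010 over all genes. Of all genes tested, 6459 were above 0 and 6110 below. Both irradiated libraries lay above both control libraries for 5 genes, Mad1l1, Bub3, Aurka, Aurkb and Plk1, and below them for 2, Mad2l1 and Bub1, where 22.1% and 19.8% of all genes did so. The 95% interval of the log2 fold change lay within 2 log2 units of no change for all 10 genes, so a change of the size the limit asks for lay outside the interval of each.

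**Figure D2:**
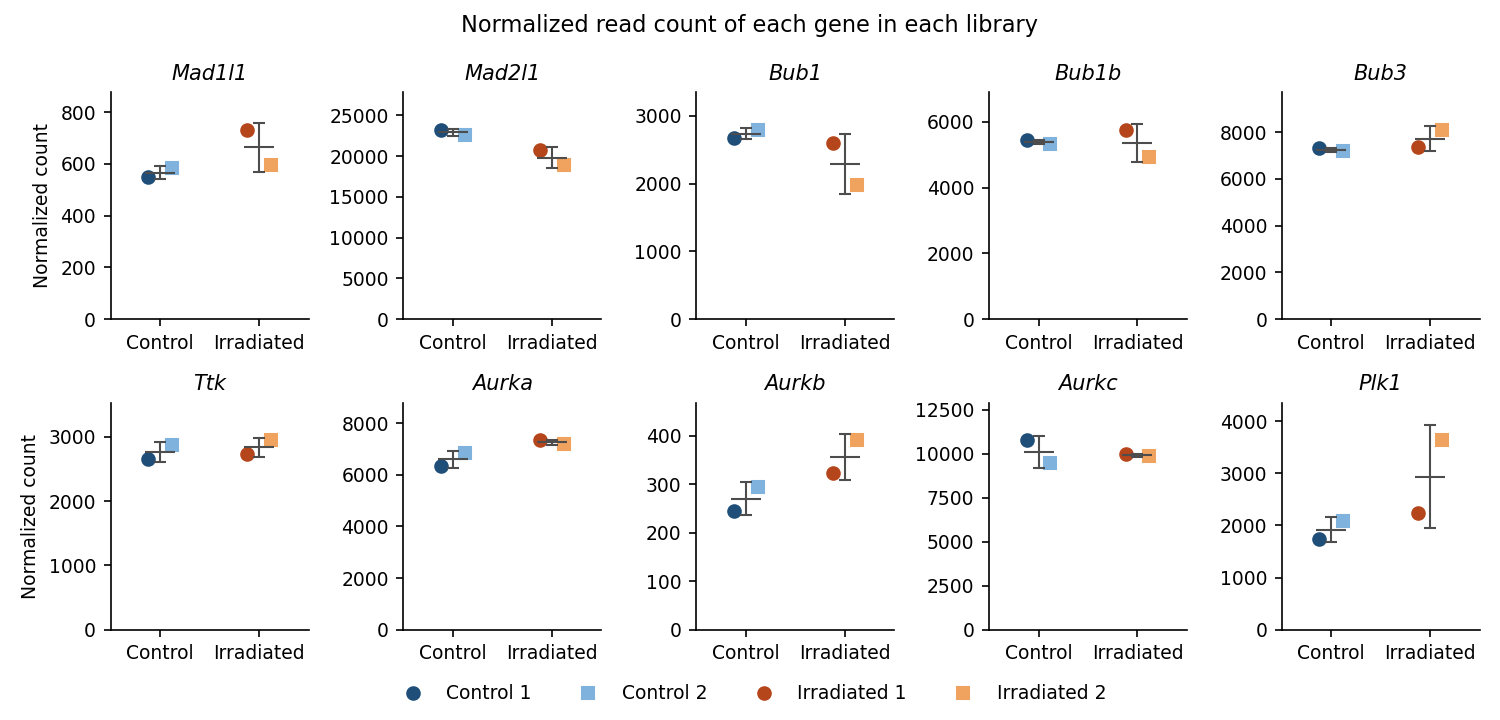
Normalized read count (vertical axes, from 0) of the 10 genes in the 4 libraries, with 1 panel per gene; points are libraries and the bars give the mean ± SD of the 2 libraries of a group. Both irradiated libraries lie above the controls for 5 genes and below them for 2, and Plk1 shows 1 irradiated library at 3633 above the other 3 at 1747 to 2239.

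Mad1l1 was counted at 548 and 583 normalized counts in control libraries and 732 and 598 in irradiated libraries. Irradiated library 1 was the high one, and irradiated library 2 lay close to the controls. This gave a log2 fold change of 0.23 (SE 0.151, 95% interval -0.13 to 0.59, adjusted p = 0.714). It was 0.37 without irradiated library 2 (adjusted p = 0.0923) and 0.068 without irradiated library 1.

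Mad2l1 was counted at 23216 and 22620 normalized counts in control libraries and 20743 and 18888 in irradiated libraries, so that both irradiated libraries lay below the controls. Its log2 fold change was -0.21 (SE 0.197, 95% interval -0.68 to 0.26, adjusted p = 0.752), and it was -0.14 without irradiated library 2. MAD2 acts on a MAD1 template, and the ratio of Mad2l1 to Mad1l1 TPM, which does not depend on the scaling between libraries, was 61.6 and 53.5 in control and 39.9 and 39.4 in irradiated libraries. This ratio was 1 of 13 that were computed and was picked after its values were seen, so it carries no test. The GC content was 40.4% for Mad2l1 and 56.8% for Mad1l1. With offsets corrected for GC content, an alternative chosen after seeing the data, the log2 fold changes of Mad2l1 and Mad1l1 were -0.078 and 0.061.

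Bub1 was counted at 2680 and 2794 normalized counts in control libraries and 2603 and 1983 in irradiated libraries. Only irradiated library 2 stood clearly below the controls. For Bub1 the log2 fold change was -0.26 (SE 0.168, 95% interval -0.65 to 0.14, adjusted p = 0.714), and it was -0.072 without that library and -0.13 with the correction for GC content. Bub1b, its relative whose product is part of the mitotic checkpoint complex, was counted at 5432 and 5333 in control and 5753 and 4935 in irradiated libraries. The groups overlapped, and the log2 fold change was -0.010 (SE 0.158, 95% interval -0.38 to 0.36).

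Bub3, the partner that both kinases share, was counted at 7304 and 7180 normalized counts in control libraries and at 7344 and 8094 after irradiation, which gave a log2 fold change of 0.092 (SE 0.160, 95% interval -0.29 to 0.47). Ttk was counted at 2653 and 2874 in control and 2734 and 2947 in irradiated libraries, with overlapping groups and a log2 fold change of 0.040 (SE 0.138, 95% interval -0.29 to 0.37). Bub3 and Ttk had the adjusted p values 0.856 and 0.927. The TPM of Bub3 exceeded the sum of Bub1 and Bub1b in every library, by a factor of 1.76 and 1.72 in control and 1.71 and 2.26 in irradiated libraries. This ratio too was picked among the 13 after its values were seen.

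The 3 Aurora kinases were present in very unequal amounts. Of their summed TPM, Aurkc held 73.3% and 68.9% in control and 68.4% and 68.2% in irradiated libraries, and Aurka held 25.8%, 29.9%, 30.3% and 30.3% in the same order. Aurkb held 0.962% and 1.24% in control and 1.28% and 1.59% in irradiated libraries. Between Aurkb and Aurkc, Aurkc was therefore the more abundant message in each library, by a factor of 76.1, 55.4, 53.3 and 42.9. No library had Aurkb above any library's Aurkc.

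Aurkb and Aurkc are close paralogs, so their sequences were compared for stretches that a read could not assign. The longest run of identical bases between the protein-coding transcripts of these genes was 25 bases, in coding sequence within 1 exon of each gene, at chr11:69048744-69048768 in Aurkb and chr7:6999992-7000016 in Aurkc (GRCm38, GENCODE M21). The coding stretches around it read as follows, 5′ to 3′ along each transcript, with the identical run in capitals and mismatches at 8 of 55 positions.
Aurkb: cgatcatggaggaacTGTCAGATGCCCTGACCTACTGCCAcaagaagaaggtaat
Aurkc: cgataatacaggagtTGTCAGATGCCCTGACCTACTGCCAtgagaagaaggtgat
The run is shorter than a sequencing read of this study, and the flanks differ between the genes. Between Aurka and Aurkb the longest shared run was 20 bases, and between Aurka and Aurkc it was 12.

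Aurka was counted at 6354 and 6840 normalized counts in control libraries and 7337 and 7182 in irradiated libraries, with both irradiated libraries higher by a small margin and a log2 fold change of 0.14 (SE 0.156, 95% interval -0.23 to 0.51, adjusted p = 0.788). Aurkc was counted at 10755 and 9444 in control and 9959 and 9854 in irradiated libraries, which lay between the controls, and its log2 fold change was -0.028 (SE 0.173, 95% interval -0.44 to 0.38, adjusted p = 0.959). Aurkb, the least abundant, was counted at 246 and 295 in control and 323 and 391 in irradiated libraries. Both irradiated libraries were higher, irradiated library 2 most. The log2 fold change of Aurkb was 0.40 (SE 0.177, 95% interval -0.015 to 0.82, unadjusted p = 0.0568, adjusted p = 0.708), and it was 0.26 without irradiated library 2 and 0.36 with the correction for GC content.

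Plk1 was counted at 1747 and 2090 normalized counts in control libraries and 2239 and 3633 in irradiated libraries. Irradiated library 2 was the high one, and irradiated library 1 lay just above the controls. Plk1 had a log2 fold change of 0.61 (SE 0.239, 95% interval 0.048 to 1.18, unadjusted p = 0.0372), or 1.53-fold, and the adjusted p in edgeR's quasi-likelihood test was 0.708. Plk1 in irradiated library 2 differed from the mean of the other 3 libraries by 0.85 on the log2 scale, where the standard deviation over all genes in that library was 0.483. Its GC content, 56.5%, puts it in the highest quintile of genes, which begins at 55.6%. Its log2 fold change was 0.22 without irradiated library 2 (adjusted p = 0.367) and 0.43 with the correction for GC content (adjusted p = 0.851).

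**Figure D3:**
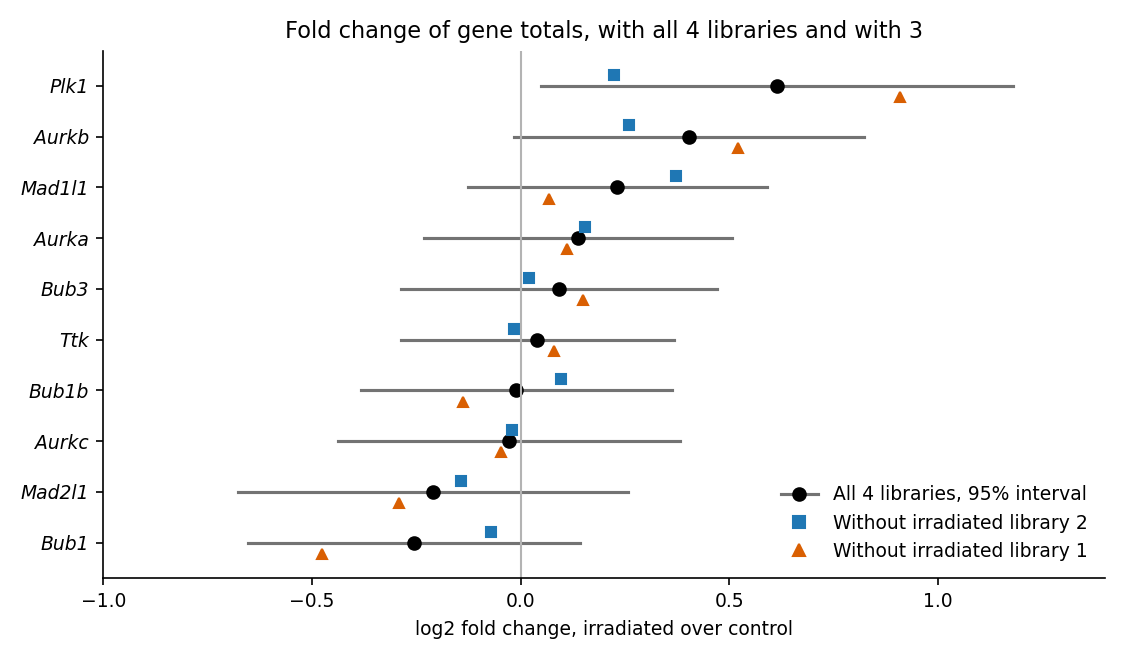
Log2 fold change of each gene total, irradiated over control (horizontal axis), from all 4 libraries with its 95% interval (circles and lines), without irradiated library 2 (squares) and without irradiated library 1 (triangles). The interval of Plk1 begins at 0.048, and its value moves from 0.61 to 0.22 without irradiated library 2 and to 0.91 without irradiated library 1.

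Leaving out irradiated library 1 instead, so that irradiated library 2 stood alone for its group, gave 4 of the 10 genes an adjusted p under 0.05 without passing the fold limit. These were Plk1 with a log2 fold change of 0.91, Aurkb with 0.52, Bub1 with -0.48 and Mad2l1 with -0.29. In that fit 34.3% of all genes had an adjusted p under 0.05, and the lone irradiated library was taken to vary like the controls. Leaving out irradiated library 2 gave 0 of the 10, beside 0.791% of all genes.

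The promoters of these genes were examined for the cell cycle gene homology region (CHR), the motif through which the DREAM complex and B-MYB control many genes of division. Windows of 300 bases, from 250 before to 50 after the start (RefSeq, GRCm38.p6), were given for 9 of the 10 genes, with Aurkb the one without an entry. The motif was searched as TTTGAA or TTCGAA on both strands, a choice made after the expression values were seen. It occurred in the windows of 6 of the 9 genes, Bub1, Bub1b, Bub3, Ttk, Aurka and Plk1, beside 21.7% of all 27025 genes with an entry. By entries it occurred in 7 of the 11 of these genes, since both entries of Bub3 held the same match, and in 19.2% of all entries. Each of the 6 genes also held a CCAAT box, searched as CCAAT on both strands, and 8.61% of all genes and 7.52% of all entries held both motifs. The sequences around 4 of the matches are printed, with the CHR in capitals, because read along the gene they hold TTTGAA or TTCGAA just after the start. TTCGAA, the match printed for Bub1, reads the same on both strands.
Bub1, chr2:127831828-127831857, minus strand: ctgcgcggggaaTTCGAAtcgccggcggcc
Bub1b, chr2:118598231-118598260, plus strand: ctgcgtcaagagacgttaaaTTTGAAactt
Aurka, chr2:172370521-172370550, minus strand: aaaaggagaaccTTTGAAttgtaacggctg
Plk1, chr7:122159453-122159482, plus strand: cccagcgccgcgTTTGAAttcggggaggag
The 4 motifs begin 15, 41, 33 and 31 bases after the annotated start. Among the 6 genes with a match, both irradiated libraries lay below the controls for Bub1 and above them for Bub3, Aurka and Plk1 by normalized counts. The groups overlapped for Bub1b and Ttk. Of all genes tested, 19.8% lay below and 22.1% above. The adjusted p values in edgeR's quasi-likelihood test were 0.714 for Bub1, 0.856 for Bub3, 0.788 for Aurka and 0.708 for Plk1. No direction was established for any of them. A link between the motif and these values was not tested. A match describes these letters only and shows no binding.

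At the level of transcripts, 0 of the members' transcripts passed both limits in edgeR's quasi-likelihood test, as did 0.0% of the 26645 transcripts tested. Of the members' 32 transcripts, all but XM_006532725.4 of Aurkb and XM_017320696.2 of Mad1l1 were tested. At an unadjusted p under 0.05, 2 of the members' transcripts were lower in irradiated oocytes, 1 of Bub1 and 1 of Bub3, beside 2.17% of all transcripts. No tested transcript of the members was higher at that limit. DESeq2 called 1 of the members' transcripts, that of Bub1, among 248 calls (0.862%). The counts of transcripts printed here are estimated counts as deposited, whereas their fold changes come from the fit with TMM factors.

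Of the 3 transcripts of Bub1, NM_009772.2 was the most abundant, at an estimated 1722 and 1669 counts in the controls and 1681 and 1552 after irradiation. NM_001113179.1 was counted at 400 and 409 in control libraries and 68 and 160 in irradiated libraries, and its share of the gene was 15.3% and 15.9% against 2.79% and 6.95%. Both irradiated libraries lay far below the controls, which were nearly equal. Its log2 fold change was -1.997 (SE 0.392, 95% interval -3.12 to -0.88, unadjusted p = 0.00838, adjusted p = 0.777). DESeq2 gave -2.01 with an adjusted p of 0.0187, and the exact test of edgeR -1.996, just inside the fold limit, with an adjusted p of 0.0183. Over the alternatives run on transcripts the log2 fold change lay between -2.55 and -1.61. The predicted transcript XM_006498620.3 took a larger share, 28.6% and 25.7% in irradiated against 18.9% and 19.4% in control libraries. The share of the main transcript NM_009772.2 was 65.8% and 64.7% in the controls and 68.7% and 67.4% after irradiation.

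Of the 3 transcripts of Bub3, NM_009774.4 held at least 96.9% of the counts in every library. NM_001317350.1 was counted at 157 and 108 in the controls and 51 and 49 after irradiation, and its log2 fold change was -1.51 (SE 0.343, unadjusted p = 0.0135, adjusted p = 0.777). Both transcripts of Bub3 are tied to the same transcript model in GENCODE's table of RefSeq matches, and so are NM_009772.2 and NM_001113179.1 of Bub1. The division of counts between such pairs was made by the authors' estimation step, and its error was not tested. In the test of isoform usage (diffSpliceDGE of edgeR, Simes' method) 0 of the members were called, beside 0.253% of genes. Bub1 had the smallest p of the members (unadjusted p = 0.00759, adjusted p = 0.323), where 6.12% of genes had an unadjusted p under 0.05. For Bub3 the unadjusted p was 0.237. With the F test of diffSpliceDGE in place of Simes' method the unadjusted p was 0.00505 for Bub1 and 0.00705 for Bub3, with adjusted p values of 0.130 and 0.165.

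**Figure D4:**
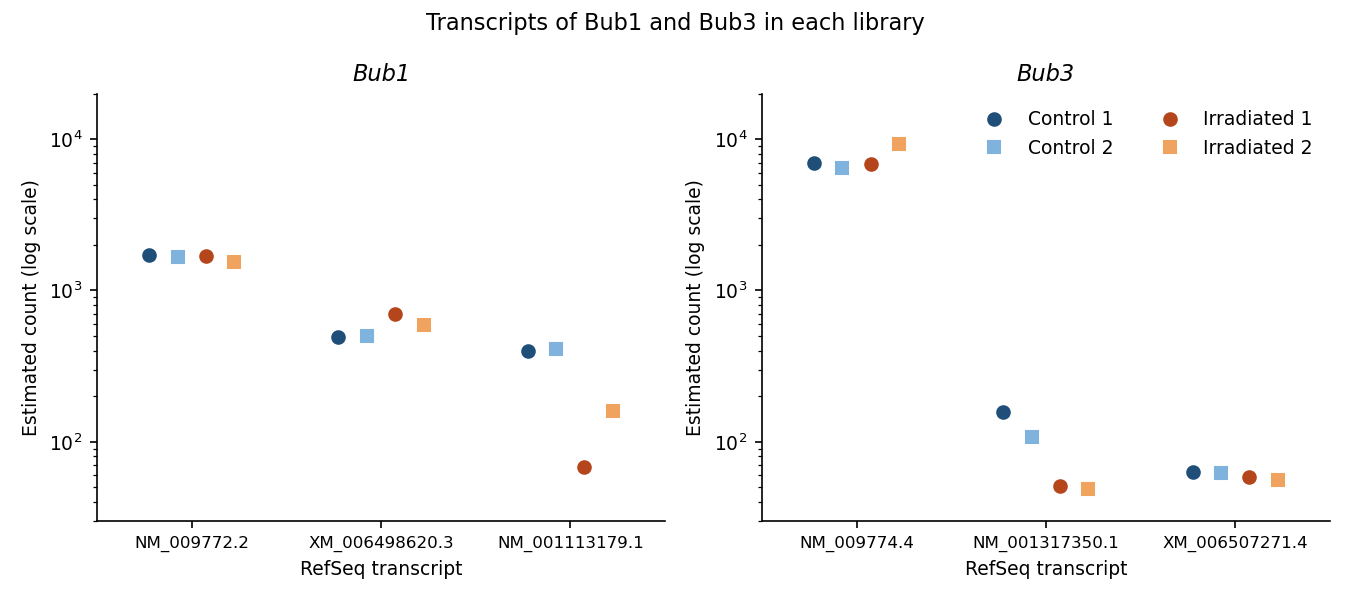
Estimated counts (vertical axes, log scale) of the RefSeq transcripts of Bub1 and Bub3 in each library, with circles for replicate 1 and squares for replicate 2. NM_001113179.1 of Bub1 lies at 400 and 409 in control and at 68 and 160 in irradiated libraries, and NM_001317350.1 of Bub3 lies at 157 and 108 against 51 and 49, while the main transcript of each gene shows no such gap.

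The other genes drew most of their counts from 1 transcript, or split them among several. NM_001355624.1 held 97.0% to 97.9% of Mad2l1, NM_001291185.1 held 93.7% to 95.7% of Aurka, and NM_009773.3 held 91.4% to 94.3% of Bub1b. Plk1 was listed with NM_011121.4 alone, and Aurkb came from NM_011496.2 but for 4 counts in 1 library. In Aurkc, NM_001080965.1 held 65.3% and 63.1% in control and 63.5% and 54.4% in irradiated libraries, and the lower share in irradiated library 2 was matched by NM_020572.2, at 33.6% there against 24.3% to 26.9% in the other libraries. The main transcript of Ttk, NM_009445.2, held 70.0% in control library 1 and 85.5% to 88.8% in the rest. In Mad1l1, which had 6 transcripts and few counts, NM_010752.3 held 46.0% and 17.3% in the controls and 51.6% and 23.9% after irradiation, a spread within each group larger than the difference between groups.

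The wider pathway was described with a list of 53 genes in 6 groups, all of which were tested. Of these, 0 passed both limits in edgeR's quasi-likelihood test, with DESeq2 or with the exact test, beside 0.00796% of all genes in the first. At an unadjusted p under 0.05, 2 were higher in irradiated oocytes and 2 were lower, beside 4.63% and 1.29% of all genes. The log2 fold change was above 0 for 16 and below 0 for 37, with a median of -0.10 beside 0.010 over all genes tested. Of all genes tested, 6459 were above 0 and 6110 below. Both irradiated libraries lay above both control libraries for 9 of the 53 and below them for 15, where 22.1% and 19.8% of all genes did so. The 10 checkpoint and Aurora kinase genes had a median of 0.066.

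Among the 7 checkpoint sensors and silencing factors, such as the RZZ subunits Zw10, Zwilch and Kntc1, 1 was above 0 and 6 below, with a median of -0.11. Of the 9 outer kinetochore genes, to which BUB1 and MAD1 are recruited, 1 was above 0 and 8 below, with a median of -0.16 and a range from -0.28 to 0.29. None of these 16 had an unadjusted p under 0.05 in edgeR's test, and none was called by the other tools. Pmf1, the outer kinetochore gene above 0, had a GC content of 58.5%. The 8 below 0 ranged from 38.9% (Knl1) to 55.7% (Spc24). The part of GC content in the direction of the pathway genes was not tested.

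The chromosomal passenger partners of the Aurora kinases differed in level and in direction. Birc5 (survivin) was counted at 64407 and 58321 normalized counts in the controls and 56396 and 40575 after irradiation, with a log2 fold change of -0.34. Cdca8 (borealin) was counted at 6465 and 6186 against 7031 and 8112, with a log2 fold change of 0.26. Incenp, the scaffold that activates the kinase, was counted at 575 and 510 against 571 and 542, with a log2 fold change of 0.035. None of the 3 had an unadjusted p under 0.05. In mean control level Incenp, at 6.71 TPM, was near Aurkb at 5.60 TPM, while Birc5, at 2858 TPM, was above Aurkc at 361.2 TPM.

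Of the 6 partners and paralogs of Aurora A and Polo kinases, 1 was lower at an unadjusted p under 0.05, where 1.29% of all genes were. Cep192, the centrosomal scaffold that recruits both kinases, was counted at 801 and 748 normalized counts in the controls and 585 and 535 after irradiation, so that the groups were well apart. Its log2 fold change was -0.47 (unadjusted p = 0.00985, adjusted p = 0.708). The GC content of Cep192 was 44.4%, in the lowest quintile of genes, which ends at 44.9%.

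The anaphase-promoting complex, which the checkpoint inhibits, was covered by 19 genes with a median log2 fold change of -0.021. Its activator Cdc20, the target of the mitotic checkpoint complex, was counted at 2009 and 2105 normalized counts in the controls and 2358 and 1583 after irradiation, with overlapping groups and a log2 fold change of -0.063. Fzr1 (CDH1), the activator that keeps GV oocytes from resuming meiosis too early, was counted at 1033 and 1094 in control and 1296 and 1578 in irradiated libraries (log2 fold change 0.44, unadjusted p = 0.0221). Anapc2, the cullin subunit, was counted at 219 and 223 against 287 and 305 (log2 fold change 0.42, unadjusted p = 0.0302). Cdc27, a scaffold subunit, was counted at 7422 and 7307 against 5996 and 4245 (log2 fold change -0.52, unadjusted p = 0.0355). Fzr1 and Anapc2 were higher and Cdc27 was lower in both irradiated libraries, and all 3 had an adjusted p of 0.708. Their GC content was 59.5% for Fzr1, 55.1% for Anapc2 and 41.1% for Cdc27.

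Among the substrates of the complex, Pttg1 (securin) was by far the most abundant, with a mean control level of 12570 TPM. It was counted at 202919 and 183638 normalized counts in the controls and 179295 and 180142 after irradiation, with a log2 fold change of -0.10. Espl1, the separase that securin holds in check, was counted at 392 and 308 against 433 and 376, with a log2 fold change of 0.21. Ccnb1 and Cdk1, the subunits of the kinase that drives the resumption of meiosis, had log2 fold changes of -0.19 and -0.30. None of these had an unadjusted p under 0.05.

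**Figure D5:**
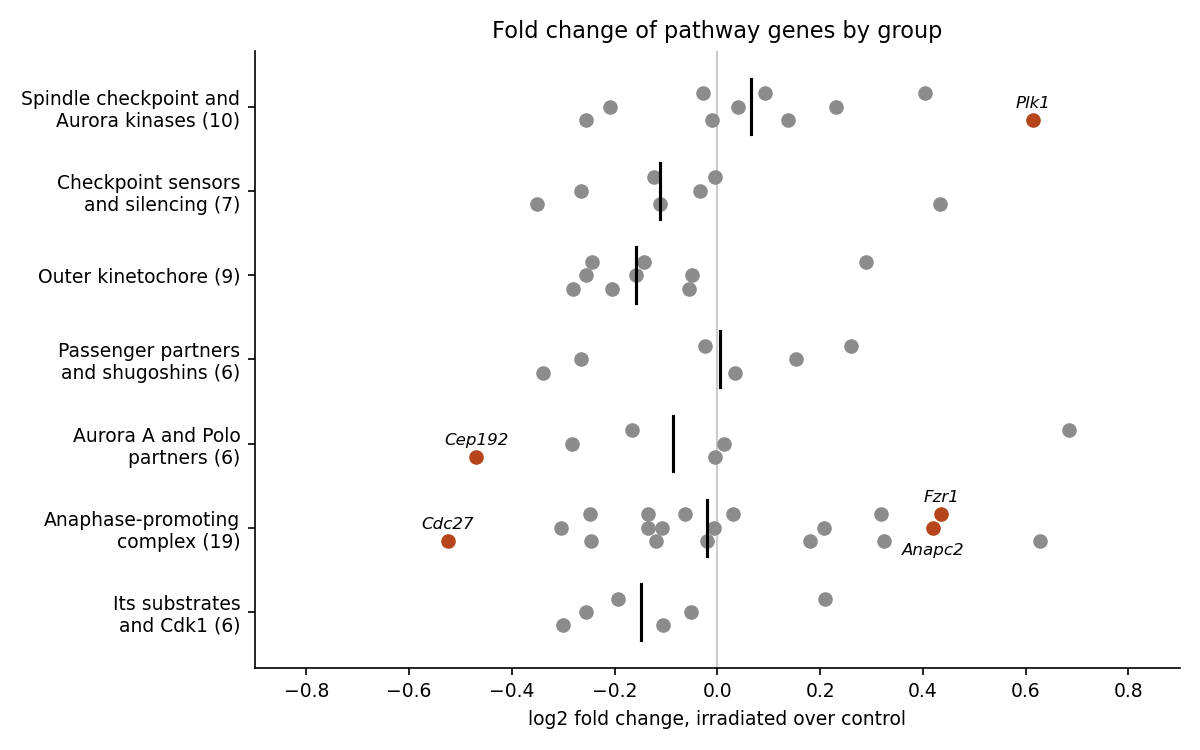
Log2 fold change, irradiated over control (horizontal axis), of the 10 checkpoint and Aurora kinase genes and of the 53 other pathway genes in 6 groups, with the number of genes in parentheses. Each point is a gene, the vertical bar is the group's median, and the named points are the 5 genes with an unadjusted p under 0.05.

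The response of p53 targets, which includes genes that halt division after DNA damage, was measured in the same libraries. Of 16 listed, 12 were tested and 0 passed both limits in edgeR's test, beside 0.00796% of all genes. At an unadjusted p under 0.05, 1 was higher, beside 4.63% of all genes, and the median log2 fold change was 0.19 beside 0.010. Cdkn1a, the inhibitor p21, was low throughout, at 21.5 and 20.6 normalized counts in the controls and 17.0 and 23.2 after irradiation. Mdm2, which degrades p53, was counted at 8652 and 8021 against 10680 and 10011 (log2 fold change 0.31, adjusted p = 0.708). Ccng1 (cyclin G1) was counted at 62.5 and 68.3 against 91.5 and 158 (log2 fold change 0.94, unadjusted p = 0.0166, adjusted p = 0.708), with irradiated library 2 the high one, as for Plk1.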

How the data were processed

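Polyadenylated RNA of pooled GV oocytes was sequenced as paired-end reads. The paper names Bowtie2 and GRCm38, and the submitters' processing notes list HISAT2, Bowtie2, RSEM and mm10, without versions. The authors deposited estimated counts and TPM for each RefSeq transcript and library. Estimated counts are not scaled for depth and carry the error of dividing reads among transcripts, whereas TPM is scaled by the authors for length and library. A further 10 columns, 4 of FPKM and 6 of averages, were not used.

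Libraries were grouped by the treatment and number in the sample titles. Counts were summed per gene and rounded. All genes were tested with the quasi-likelihood functions of edgeR 4.0.16 (R 4.3.3), after filterByExpr at a minimum count of 10 and with TMM factors and no block, and p-values were adjusted by Benjamini-Hochberg over the whole table. Transcripts were treated likewise. Levels between genes are TPM. Alternatives were DESeq2 1.42.0, the exact test of edgeR, limma 3.58.1 on log2(TPM + 1) and log2(TPM + 0.1), other scalings, no filter, a replicate block, leaving out each library, and offsets corrected for GC content, which were added after seeing the data (95.9% of genes had a GC value). The tests were checked on simulated data in which 200 well-counted features were changed by 3 log2 units. The quasi-likelihood test with both limits recovered 100% of them for genes, with 0 false calls. For transcripts it recovered 67%, with 3 false calls, so it can miss large changes of single transcripts. All simulated libraries shared the same dispersion, whereas irradiated library 2 stood apart in the data. Smaller changes were not simulated, so these shares say nothing about changes of the size fitted for the 10 gene totals. Gene IDs were matched to RefSeq of GRCm38.p6 (17323 of 17374). Named were the 10 genes, the pathway genes with an unadjusted p under 0.05, their direct partners, the main transcript of each gene and transcripts with an unadjusted p under 0.05. The genes and lists were chosen with earlier results of these data known. With 2 libraries in each group, p-values rest on the spread between these 4 libraries. Figures were drawn with matplotlib 3.10.9.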

Additional observations from a re-analysis of the deposited data

How the results depend on the processing

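None of the 10 genes and none of the 53 pathway genes passed both limits under any alternative run, and no member was called for isoform usage. The number of all genes past both limits was 1, and became 0 with library size alone, with each of the limma fits on TPM and with the correction for GC content, 3 without the filter, 4 with DESeq2, 10 with the exact test, 7 with the replicate block, and 16 to 84 when 1 library was left out (84 without irradiated library 1, 16 without irradiated library 2, and 21 and 20 without control library 1 and 2). Transcripts past both limits rose from 0 to 248 with DESeq2 and 299 with the exact test, and those of the 10 genes from 0 to 1 with DESeq2. By counts in place of TPM, the mean Aurora shares were 40.2% for Aurka, 1.82% for Aurkb and 58.0% for Aurkc. The sign of some log2 fold changes near 0 turned. With the limma fits on TPM, Mad2l1 was at 0.010, Bub1b at 0.21 and Aurkc at 0.18, and with library size alone Bub1b was at 0.14 and Aurkc at 0.13. When 1 library was left out, Bub1b ranged from -0.14 to 0.097 (above 0 without irradiated library 2), Ttk from -0.022 to 0.094 (below 0 without control library 1, and at -0.015 without irradiated library 2) and Aurkc from -0.12 to 0.064 (above 0 without control library 1). The median of all genes was 0.17 with library size alone and 0.18 with log2(TPM + 1), against 0.010 with TMM, and relative to that median Mad2l1 was at -0.17 with log2(TPM + 1). The causes of the other changes were not tested. A further 107 values of main results and 125 fold changes of single genes kept their direction and their side of the threshold or, for levels and shares with no test, moved by less than the spread between libraries. Same-numbered libraries are not stated to share animals or a day, and their deviations from the group means correlated by 0.0975, so the replicate block, under which no member changed its call, is given here alone. The calls of isoform usage over all genes went from 16 to 58 with the F test and to 3 with the replicate block. The dispersion between libraries was 0.0251 for gene totals and 0.473 for transcripts.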
